A study of Mus musculus with 32 samples.

Results

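Bile acids are made from cholesterol in hepatocytes, and 10 genes of their synthesis, sensing and transport were followed through the livers and fat depots of *Gpr146* knockout and wild-type mice. The genes were taken by symbol, 10 of the 24646 genes measured in each tissue, and all 10 were found. They are *Cyp7a1* and *Cyp8b1* of the classic synthesis pathway, *Cyp27a1* and *Cyp7b1* of the alternative pathway, the receptors *Nr1h4* (FXR) and *Nr0b2* (SHP), the bile acid carriers *Abcb11* (BSEP) and *Slc10a1* (NTCP), and the sterol exporters *Abcg5* and *Abcg8*.

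Bile acid synthesis is the main route by which the body disposes of cholesterol. CYP7A1 catalyses the first and rate-limiting step of the classic pathway, and CYP8B1 sets how much cholic acid is formed. Bile acids returning from the intestine activate FXR, which induces SHP, a repressor of *Cyp7a1*, and BSEP, which pumps bile acids into the canaliculus. NTCP takes bile acids up from the blood, and ABCG5 and ABCG8 form a heterodimer that secretes cholesterol and plant sterols into bile.

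Samples of liver, brown fat (BAT) and white fat of the inguinal (iWAT) and the epididymal (eWAT) depot came from male mice of 20 weeks on a C57BL/6J background. Knockout mice (KO) carried a whole-body deletion of *Gpr146*, a G protein-coupled receptor, made by CRISPR/Cas9, and wild-type littermates (WT) were the controls. Both genotypes had been on a high fat diet (HFD) for 3 months and were fasted before collection, so no group was on chow or fed. RNA was measured on Affymetrix Mouse Gene 2.1 ST arrays in 4 mice per genotype and tissue, 32 arrays in all. The deposited tables name the white depots by abbreviations that were read here as inguinal and visceral, the latter taken as eWAT. No label states this match, and every eWAT and iWAT value below rests on it. Because the deletion is present in every cell, a change that arises in the liver and one that reaches it from another organ cannot be told apart. All values below are log2 expression on the scale of the deposited tables, in which a difference of 1 is a doubling, and each tissue was tested within its own table with limma and Benjamini-Hochberg adjustment over all genes (threshold 0.05). As arrays give a background signal for silent genes, the 95th percentile of the means of 1119 olfactory receptor genes was used as a background level, 2.94 in liver. Precision is limited by the number of arrays, 4 per genotype.

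The targeted gene was lower in the knockout in every tissue, with *Gpr146* log2 changes of -1.77 in liver, -1.53 in eWAT, -1.55 in iWAT and -1.16 in BAT, past the threshold in liver (adjusted p = 6.55e-06, limma) and eWAT (adjusted p = 0.00823, limma). The titles of the 4 knockout liver samples name both genotypes, whereas their other labels say knockout. The mean over 8 hepatocyte markers, among them *Alb* and *Apoa1*, was 10.84 to 10.90 in the wild type and 10.86 to 10.96 in the knockout. Of these, 5 had a higher and 3 a lower mean in the knockout, and 0 were called by limma. *Ttr* and *Apob* had log2 changes of -0.08 and -0.11, with every knockout liver below every wild-type liver. Values of the genotypes did not overlap for 7.78% of all liver genes. Markers of other liver cell types differed more. Stellate cell markers (7 genes) averaged 4.60 to 5.07 in wild-type and 3.72 to 4.47 in knockout livers, and 3 of them fell past the threshold. Endothelial markers (6 genes) averaged 5.50 to 5.68 against 4.46 to 5.28, and 3 of them fell. Kupffer cell markers (6 genes) averaged 5.01 to 6.30 against 3.85 to 5.26, with no call by limma and 6 of 6 at an unadjusted p under 0.05, which 13.3% of all liver genes reached. Cholangiocyte markers (8 genes, 3 of them above background) averaged 3.26 to 3.39 against 3.36 to 3.69, with 8 of 8 higher in the knockout, no call by limma and 3 at an unadjusted p under 0.05. Knockout replicate 2 had the highest mean of the 4 knockout livers on the stellate, endothelial and Kupffer cell lists. In bulk tissue, fewer cells of a type and less RNA per cell cannot be told apart.

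In liver, *Cyp7a1* was the one member that passed the threshold. Its log2 expression was 8.69, 7.32, 8.69 and 8.83 in wild-type replicates 1 to 4 and 10.05, 10.46, 10.05 and 10.03 in knockout replicates 1 to 4, the order kept below. Every knockout liver lay above every wild-type liver. The mean rose from 8.38 ± 0.71 (SD, n = 4) to 10.15 ± 0.21 (SD, n = 4), a log2 change of 1.77 (SE 0.28, 95% confidence interval 1.15 to 2.38) or 3.40-fold (adjusted p = 0.0215, limma). A two-sided exact permutation test gave p = 0.0286, the smallest that 4 mice against 4 allow. In both genotypes replicate 2 stood apart, as the lowest wild-type value and the highest knockout value. With both of these livers left out, an alternative chosen after seeing the data, the change was 1.31 (adjusted p = 0.00048, limma). Leaving out 1 liver ended the call in 3 of 8 fits (wild-type replicate 3 with an adjusted p of 0.0531, knockout replicates 1 and 4 with 0.0638 and 0.0714, limma), as did a trended and robust prior (0.0797). Of all genes, 0.661% were called in liver and 0.162% were called higher in the knockout, against 1 of 10 members. At an unadjusted p under 0.05 (limma) the members numbered 3 of 10, beside 13.3% of all liver genes. The 4 values of each genotype did not overlap for 7.78% of all genes and for 1 of 10 members.

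*Cyp7a1* is known to be expressed mainly by hepatocytes around the central vein. Of 8 pericentral markers, 8 had a lower mean in the knockout and 0 were called by limma (2 at an unadjusted p under 0.05), and their averages were 7.23 to 7.40 in wild-type and 6.87 to 7.18 in knockout livers. Of 8 periportal markers, 6 were higher and 0 were called (5 at an unadjusted p under 0.05), with averages of 7.58 to 8.07 in wild-type and 8.16 to 8.61 in knockout livers. The part of zonation, and of the lower stellate, endothelial and Kupffer cell markers, in the *Cyp7a1* difference was not tested.

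**Figure D1:**
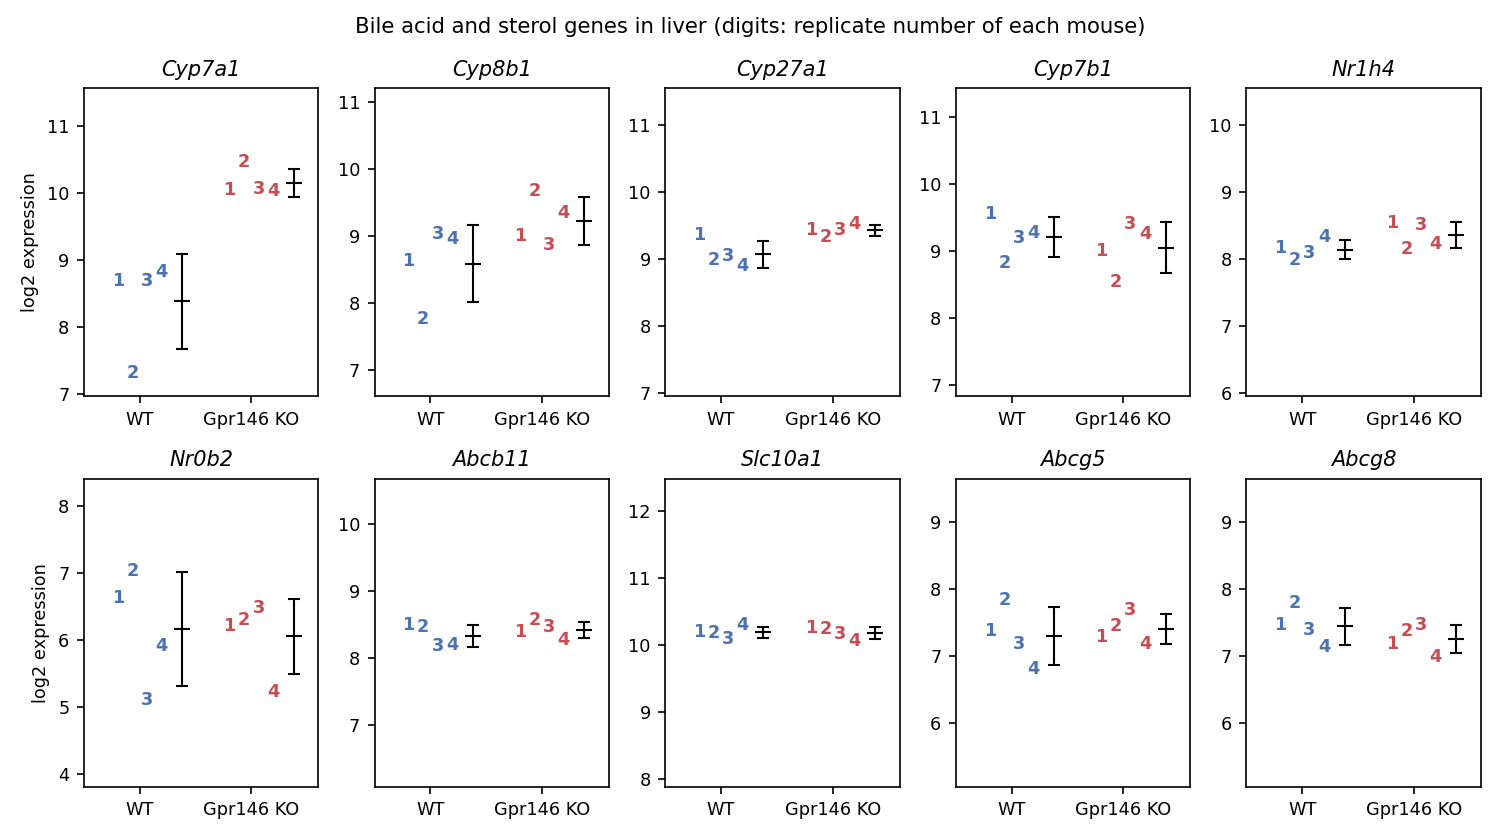
Log2 expression (y axis, each panel spanning the same number of log2 units) of the 10 members in liver, for WT mice in blue and *Gpr146* KO mice in red. Digits are the replicate numbers, 1 array each, and the black mark with bars is the mean ± SD of the 4 mice. For *Cyp7a1* the lowest knockout value is 10.03 and the highest wild-type value 8.83, and the genotypes overlap in the other 9 panels.

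*Cyp8b1*, the sterol 12-alpha-hydroxylase downstream of CYP7A1, had values of 8.61, 7.76, 9.02 and 8.95 in wild-type livers and 9.00, 9.66, 8.86 and 9.34 in knockout livers. Replicate 2 was again the lowest wild-type and the highest knockout value, and the genotypes overlapped. The log2 change was 0.63 (SE 0.26, 95% confidence interval 0.06 to 1.20), which did not pass the threshold (adjusted p = 0.321, limma). Without both livers of replicate 2 it was 0.21 (adjusted p = 0.643, limma). *Cyp8b1* was also set against *Cyp7a1* from liver to liver. Knockout replicate 4 had the least *Cyp7a1* of the knockout livers but more *Cyp8b1* than knockout replicates 1 and 3. Over the 8 livers, each expressed as a deviation from its genotype mean, the 2 genes had a Pearson r of 0.90 (p = 0.0399, 0.0799 after adjustment over the 6 pairs of members examined) and a Spearman rho of 0.76 (p = 0.0503, adjusted 0.101), by two-sided exact permutation within genotype. The relation did not pass the threshold after adjustment, and r was 0.75 without both livers of replicate 2, the 2 farthest from the median of *Cyp7a1*. *Cyp8b1* ranked at 32 among 12725 genes above background by its r with *Cyp7a1* over all 8 livers, replicate 2 included.

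Promoter windows from 250 bases before to 50 bases after the transcription start were taken from RefSeq (GRCm38.p6), which held 1 or more for 8 of the 10 members. *Cyp7a1* and *Cyp7b1* are not among them. Shown for the relation with *Cyp7a1* across livers, which did not pass the threshold after adjustment, is the *Cyp8b1* window. It spans chr9:121916256-121916555 on the minus strand, 5′ to 3′ in transcript sense, and capitals mark CAAAGTCCA, a sequence of the type bound by HNF4A, a nuclear receptor that maintains hepatocyte expression. These letters were searched on both strands and stand in 0.475% of 32851 promoter windows.
Cyp8b1: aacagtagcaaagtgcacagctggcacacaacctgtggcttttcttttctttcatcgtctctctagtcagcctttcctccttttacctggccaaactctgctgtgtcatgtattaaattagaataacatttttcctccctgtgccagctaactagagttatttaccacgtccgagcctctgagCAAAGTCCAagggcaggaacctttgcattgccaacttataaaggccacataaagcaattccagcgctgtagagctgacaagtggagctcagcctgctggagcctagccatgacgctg

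The alternative pathway starts with CYP27A1, a mitochondrial sterol 27-hydroxylase, and continues with CYP7B1, which hydroxylates the oxysterol product. *Cyp27a1* measured 9.36, 8.97, 9.04 and 8.88 in wild-type livers and 9.43, 9.33, 9.43 and 9.52 in knockout livers. Wild-type replicate 1 alone reached into the knockout range. The log2 change was 0.36 (SE 0.10, 95% confidence interval 0.13 to 0.59), or 1.28-fold, and was not past the threshold (adjusted p = 0.155, limma; 0.0482 without wild-type replicate 1, where it was 0.46). *Cyp7b1* measured 9.54, 8.82, 9.20 and 9.26 in wild-type livers and 9.00, 8.53, 9.40 and 9.25 in knockout livers. The ranges overlapped, with a log2 change of -0.16 (95% confidence interval -0.58 to 0.26, adjusted p = 0.782, limma). Replicate 2 was the lowest value of *Cyp7b1* in each genotype. The deviations of *Cyp27a1* and *Cyp7b1* had an r of 0.60 over the 8 livers (two-sided exact permutation p = 0.106, adjusted 0.159) and a rho of 0.67 (p = 0.0799, adjusted 0.12), and r was 0.69 without the 2 livers farthest from the median of *Cyp27a1*.

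The bile acid receptor *Nr1h4* measured 8.17, 7.98, 8.08 and 8.33 in wild-type livers and 8.54, 8.15, 8.51 and 8.22 in knockout livers. These ranges overlapped, and the log2 change of 0.22 (95% confidence interval -0.03 to 0.46) was not past the threshold (adjusted p = 0.438, limma). *Nr0b2*, whose product represses *Cyp7a1*, measured 6.62, 7.02, 5.10 and 5.90 in wild-type livers and 6.21, 6.30, 6.47 and 5.22 in knockout livers. The spread within a genotype was the largest of the 10 members, with SDs of 0.85 and 0.56 (n = 4 each). The log2 change was -0.11 (SE 0.38, adjusted p = 0.936, limma), and its 95% confidence interval of -0.95 to 0.73 leaves room for a change in either direction. The sign turned when wild-type replicate 1, wild-type replicate 2 or knockout replicate 4 was left out, with the highest value, 0.18, without wild-type replicate 2. The deviations of *Cyp7a1* had an r of -0.48 with those of *Nr0b2* (two-sided exact permutation p = 0.413, adjusted 0.465) and a rho of -0.33 (p = 0.566, adjusted 0.566). Without both livers of replicate 2, r was -0.14. With *Nr1h4*, *Cyp7a1* had an r of 0.29 (p = 0.465, adjusted 0.465, two-sided exact permutation) and a rho of 0.26 (p = 0.554, adjusted 0.566), and r was 0.07 without both livers of replicate 2.

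Neither bile acid carrier had a change that passed the test. *Abcb11* measured 8.49, 8.47, 8.19 and 8.20 in wild-type livers and 8.39, 8.56, 8.47 and 8.28 in knockout livers, with overlapping ranges. Its log2 change was 0.09 (95% confidence interval -0.13 to 0.31, adjusted p = 0.754, limma). *Slc10a1* measured 10.20, 10.18, 10.08 and 10.29 in wild-type livers and 10.25, 10.23, 10.16 and 10.06 in knockout livers. The means were 10.19 ± 0.08 and 10.17 ± 0.09 (SD, n = 4 each), a change of -0.01 with a 95% confidence interval of -0.18 to 0.15 (adjusted p = 0.965, limma). Changes beyond these bounds lie outside the interval, whereas smaller ones could not be resolved with 4 mice per genotype.

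*Nr0b2* and *Abcb11*, both known targets of FXR, had deviations that ran in parallel, with an r of 0.88 (two-sided exact permutation p = 0.0278, adjusted 0.0799) and a rho of 0.86 (p = 0.0278, adjusted 0.0833), not past the threshold after adjustment. Without wild-type replicate 3 and knockout replicate 4, the 2 livers farthest from the median of *Nr0b2*, r was 0.81. In both genotypes the liver with the least *Nr0b2* also had the least *Abcb11*. The 2 promoter windows are shown for this relation, 5′ to 3′ in transcript sense. That of *Nr0b2* spans chr4:133553126-133553425 on the plus strand, and capitals mark TCAAGG, the core read by NR5A2 (LRH-1), which occurs in it 2 times and stands in 14.4% of all windows on either strand. That of *Abcb11* spans chr2:69342567-69342866 on the minus strand, and capitals mark an inverted repeat of AGGTCA with 1 base between the repeats, the form of site that FXR binds with its partner RXR. With at most 1 mismatch in its 12 letters, such a repeat stood in 27 of the 32851 windows (0.0822%). The *Nr0b2* window held no match to it, which says nothing of sites elsewhere.
Nr0b2: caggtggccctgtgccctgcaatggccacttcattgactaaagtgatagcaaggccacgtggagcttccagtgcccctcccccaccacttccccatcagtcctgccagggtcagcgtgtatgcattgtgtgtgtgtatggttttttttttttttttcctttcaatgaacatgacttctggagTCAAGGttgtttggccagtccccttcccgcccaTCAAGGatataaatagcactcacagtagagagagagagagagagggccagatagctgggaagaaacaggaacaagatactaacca
Abcb11: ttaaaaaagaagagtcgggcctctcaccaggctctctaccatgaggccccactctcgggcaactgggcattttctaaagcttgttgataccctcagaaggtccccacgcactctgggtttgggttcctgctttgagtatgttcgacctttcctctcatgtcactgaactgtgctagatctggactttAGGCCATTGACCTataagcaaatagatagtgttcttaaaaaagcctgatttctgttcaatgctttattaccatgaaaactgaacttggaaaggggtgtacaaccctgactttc

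The sterol exporters *Abcg5* and *Abcg8* moved as a pair with no change between genotypes that passed the test. *Abcg5* measured 7.37, 7.84, 7.18 and 6.81 in wild-type livers and 7.29, 7.46, 7.69 and 7.18 in knockout livers. *Abcg8* measured 7.46, 7.80, 7.39 and 7.13 in wild-type livers and 7.18, 7.37, 7.46 and 6.98 in knockout livers. Within each genotype the 4 livers had the same order for both genes, from wild-type replicate 4 up to replicate 2, and from knockout replicate 4 up to replicate 3. The log2 change was 0.10 for *Abcg5* (95% confidence interval -0.32 to 0.52, adjusted p = 0.876, limma). For *Abcg8* it was -0.19 (95% confidence interval -0.51 to 0.12, adjusted p = 0.608, limma), or -0.30 with wild-type replicate 4 left out and -0.08 with wild-type replicate 2 left out. The deviations of the 2 genes had an r of 0.97 over the 8 livers (two-sided exact permutation p = 0.00347, adjusted 0.0208) and a rho of 0.95 (p = 0.00347, adjusted 0.0208), the one pair of 6 to pass after adjustment. Without wild-type replicates 2 and 4, the livers farthest from the median of *Abcg5*, r was 0.94.

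These 2 genes lie head to head, with a transcription start of *Abcg8* 110 bases from that of *Abcg5* in GRCm38.p6. RefSeq holds another *Abcg8* window, chr17:84676052-84676351, which does not overlap that of *Abcg5*. It held 0 of the matches described below. The stretch shared by the *Abcg5* window and the nearer *Abcg8* window is shown because the genes moved together. This shared stretch spans chr17:84682962-84683170, 209 bases on the plus strand, in the sense of *Abcg8*, and capitals mark AGATAA or its reverse complement TTATCT, letters of the type read by GATA factors. They occur 3 times in this stretch and at least once in 11.2% of all windows. A match of letters is a description of the window and not a bound site.
Abcg5 and Abcg8: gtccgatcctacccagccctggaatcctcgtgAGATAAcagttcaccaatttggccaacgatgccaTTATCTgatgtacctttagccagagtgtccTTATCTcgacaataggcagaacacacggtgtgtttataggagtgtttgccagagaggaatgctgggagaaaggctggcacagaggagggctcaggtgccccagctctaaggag

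**Figure D2:**
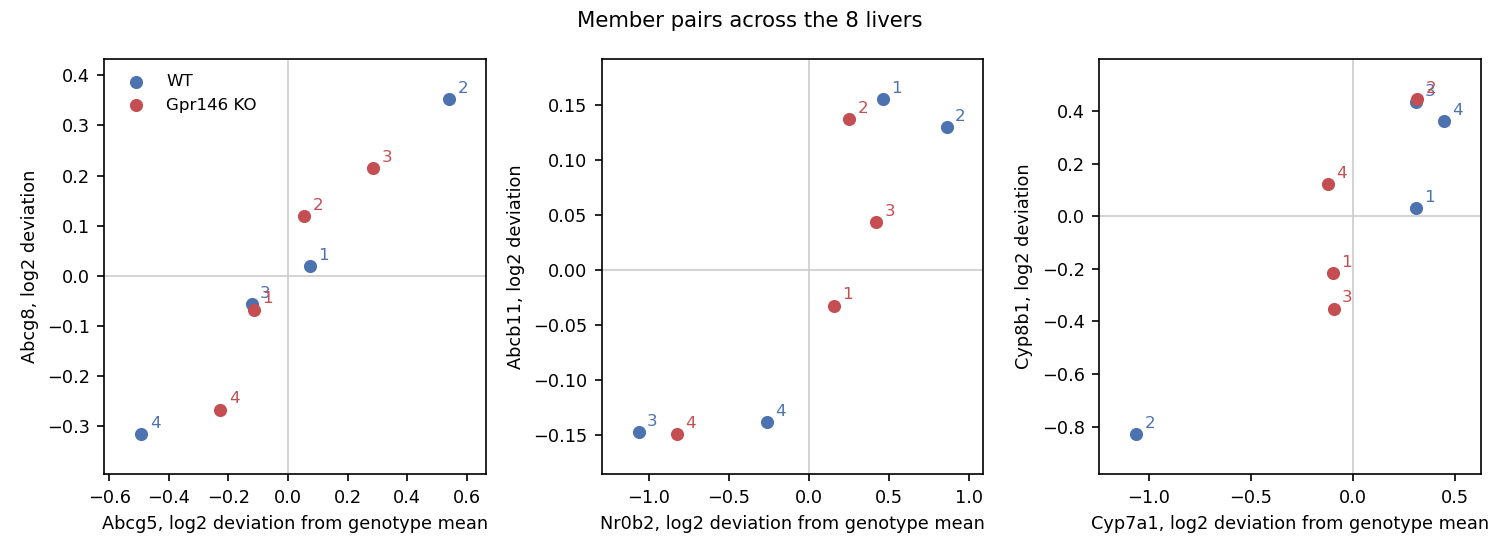
Log2 deviation of each liver from its genotype mean for 3 pairs of members, with the first gene on the x axis and the second on the y axis. Points are single mice (WT blue, *Gpr146* KO red) and carry the replicate number. *Abcg5* and *Abcg8* lie close to a line (r 0.97), *Nr0b2* and *Abcb11* rise together (r 0.88), and the *Cyp7a1* and *Cyp8b1* panel has wild-type replicate 2 far from the other livers (r 0.90, and 0.75 without replicate 2 of both genotypes).

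Wild-type replicate 2 was at an end of the range for several members at once. Among all 8 livers it had the lowest *Cyp7a1*, *Cyp8b1* and *Nr1h4* and the highest *Nr0b2*, *Abcg5* and *Abcg8*. Knockout replicate 2 had the highest *Cyp7a1* and *Cyp8b1* and the lowest *Cyp7b1* of all 8. As a description, the genes above background whose deviations were nearest to those of *Cyp7a1* over the 8 livers were *A930012O16Rik* (r 0.99), *Lysmd2* (0.98), *1010001N08Rik* (0.97), *Bhmt2* (0.97) and *Hspb8* (0.97), out of 12725 compared. *Bhmt2*, a methyltransferase of methionine metabolism, ran from 7.85 in wild-type replicate 2 to 8.60 in knockout replicate 2, and *Hspb8*, a small heat shock protein, from 7.54 in knockout replicate 4 to 8.19 in wild-type replicate 3. The first 3 stayed at 3.66 or below on every array, near the background level. In each of these genes nearest to *Cyp7a1*, replicate 2 was the lowest wild-type and the highest knockout value, as for *Cyp7a1*. Their r without both livers of replicate 2 was not computed.

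Across the remaining genes of bile acid and sterol handling, 74 genes in 5 lists were examined in liver, and *Abcc3* was the one that passed the threshold. *Abcc3* encodes MRP3, which exports conjugated bile acids from hepatocytes to blood. It measured 8.49, 8.78, 8.71 and 8.46 in wild-type livers and 8.13, 8.15, 8.05 and 7.97 in knockout livers. Every knockout liver lay below every wild-type liver, and the mean fell by 0.53 on the log2 scale (SE 0.09, adjusted p = 0.0288, limma). The call was lost in 5 of 8 fits that each left out 1 liver (wild-type 2 and 3, knockout 1, 3 and 4), with an adjusted p of up to 0.0985 (limma). Of all genes, 0.499% were called lower in liver.

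Of the 16 other synthesis and conjugation enzymes, 0 were called by limma and 6 had an unadjusted p under 0.05 (13.3% of all liver genes, as for the lists that follow), with a median log2 change of -0.03 beside 0.01 over all genes. *Cyp2c70*, which forms the muricholic acids of mice, measured 9.35, 9.27, 8.54 and 8.86 in wild-type livers and 10.08, 9.25, 10.22 and 10.32 in knockout livers. Knockout replicate 2 lay within the wild-type range and the other 3 lay above it. The log2 change of 0.96 was not past the threshold (adjusted p = 0.105, limma), and without knockout replicate 2 it was 1.20 (adjusted p = 0.0105, limma). *Acot8*, a peroxisomal acyl-CoA thioesterase, was lower in all 4 knockout livers, with means of 5.39 ± 0.19 and 4.84 ± 0.19 (SD, n = 4 each, adjusted p = 0.0616, limma). *Baat*, which conjugates bile acids to taurine or glycine, had means of 7.91 ± 0.13 and 8.14 ± 0.10 (SD, n = 4 each, adjusted p = 0.265, limma).

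Of 21 measured regulators of *Cyp7a1*, which included *Nr5a2*, *Hnf4a*, the FGF15 receptor genes and clock output factors, 0 were called by limma and 5 had an unadjusted p under 0.05 (median log2 change -0.01). The clock repressor *Nr1d1* had a log2 change of 0.48 with all knockout livers above all wild-type livers (adjusted p = 0.106, limma). *Nr1i2*, the xenobiotic receptor PXR, had a change of -0.41 with all knockout livers below (adjusted p = 0.145, limma). *Klb*, the co-receptor through which FGF15 from the gut represses bile acid synthesis, had a change of 0.40 with overlapping values (adjusted p = 0.169, limma).

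Besides *Abcc3*, 15 of 16 other transporters were not called, and 5 of the 16 had an unadjusted p under 0.05 (median log2 change -0.08). *Slc10a2*, the bile acid carrier best known from ileum and bile ducts, had a change of -0.34 (adjusted p = 0.201, limma), and the part of the cholangiocyte markers in it was not tested. *Abcb4*, which supplies phospholipid to bile, had a change of -0.31 (adjusted p = 0.231, limma).

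Of 8 other targets of the oxysterol receptor LXR, 0 were called by limma and 3 had an unadjusted p under 0.05 (median log2 change 0.03). *Scd1*, the stearoyl-CoA desaturase, measured 9.95, 7.53, 9.52 and 7.54 in wild-type livers and 11.01, 11.05, 9.80 and 11.01 in knockout livers. Wild-type livers split widely, with replicates 2 and 4 lowest, and knockout replicate 3 lay below wild-type replicate 1, so that a log2 change of 2.08 (SE 0.53) had an adjusted p of 0.113 (limma). *Mylip*, an E3 ligase that degrades the LDL receptor, was lower in all 4 knockout livers with a change of -0.85 (adjusted p = 0.0657, limma). *Srebf1*, the lipogenic transcription factor, had a change of 0.52 with overlapping values (adjusted p = 0.128, limma). Of 13 measured genes of cholesterol delivery and esterification, 0 were called by limma and 4 had an unadjusted p under 0.05 (median log2 change -0.02). These included *Soat1*, a cholesterol acyltransferase, at -0.64 (adjusted p = 0.217, limma), whose knockout replicate 2 at 4.43 was above every wild-type liver. Without that liver the change of *Soat1* was -0.89 (adjusted p = 0.003, limma). *Nceh1*, a cholesteryl ester hydrolase, had a change of -0.24 (adjusted p = 0.217, limma). *Stard4*, a sterol carrier, had a change of 0.53 (adjusted p = 0.251, limma).

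**Figure D3:**
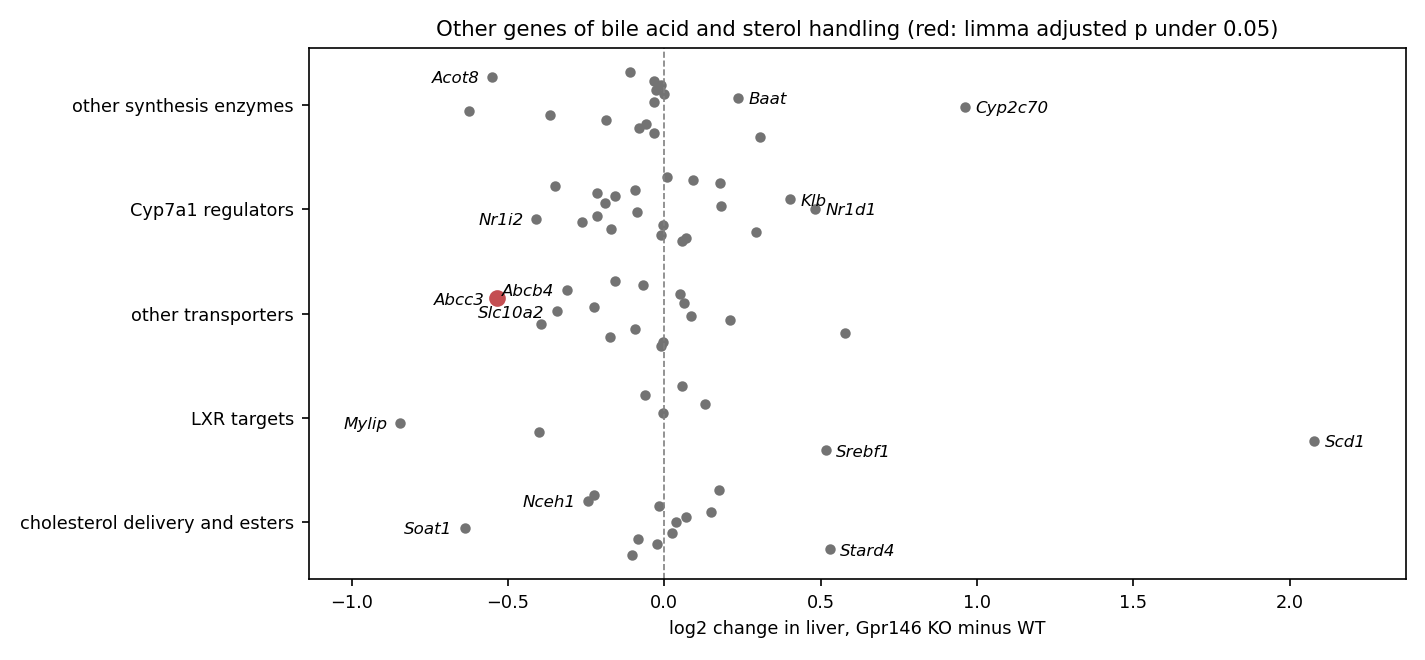
Log2 change in liver (x axis, *Gpr146* KO minus WT) of 74 further genes of bile acid and sterol handling, 1 point per gene, in 5 lists on the y axis. Named are the 3 genes with the smallest p of each list. *Abcc3* at -0.53, in red, is the one gene with a limma adjusted p under the threshold, and *Scd1* at 2.08 has the largest change.

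In the fat depots most members were not detected above background. Fat is not known as a site of bile acid synthesis, and the olfactory receptor level there was 2.67 in BAT, 2.77 in eWAT and 3.38 in iWAT. *Cyp7a1*, *Nr1h4*, *Nr0b2*, *Abcb11*, *Slc10a1*, *Abcg5* and *Abcg8* had means below these levels in all 3 depots, as had *Cyp8b1* and *Cyp7b1* in iWAT and BAT. No member was called in any depot by limma, and at an unadjusted p under 0.05 the counts were 2 in eWAT, 0 in iWAT and 0 in BAT. The shares of all genes at that p were 29.8% in eWAT, 15.4% in iWAT and 12.7% in BAT. The shares called after adjustment were 15.2% in eWAT, 0% in iWAT and 0.0284% in BAT. Markers of other tissues differed widely between arrays of one genotype. In iWAT, 6 lymphocyte markers averaged 7.75, 7.82, 3.51 and 3.30 in wild-type and 3.56, 7.57, 3.51 and 5.49 in knockout mice. In BAT, 5 skeletal muscle markers averaged 3.17, 6.76, 7.81 and 3.06 in wild-type and 3.22, 7.93, 4.06 and 3.09 in knockout mice. Their part in the iWAT and BAT results was not tested.

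*Cyp27a1*, which is also known to be made in macrophages, was well above background in all 3 depots. In eWAT it measured 6.55, 6.10, 6.91 and 6.43 in wild-type and 7.12, 6.69, 7.31 and 7.15 in knockout mice. Knockout replicate 2 was within the wild-type range and wild-type replicate 3 within that of the knockout. The log2 change was 0.57 (SE 0.18, 95% confidence interval 0.16 to 0.97), close to the threshold (adjusted p = 0.0642, limma), and 6 of 15 alternative settings brought it past (adjusted p 0.0156 to 0.158, limma). Of 6 adipocyte markers in eWAT, 5 were called higher and 1 lower, where 15.2% of all genes were called. Of the genes used as Kupffer cell and stellate cell markers in liver, 2 of 6 and 4 of 7 were called lower in eWAT. The part of cell types in the *Cyp27a1* difference was not tested. In iWAT, *Cyp27a1* had a change of -0.42 (95% confidence interval -1.08 to 0.24, adjusted p = 0.481, limma), which was -0.64 with wild-type replicate 2 left out and -0.18 with wild-type replicate 3 left out. In BAT it had a change of 0.21 (95% confidence interval -0.06 to 0.47, adjusted p = 0.527, limma).

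*Cyp7b1* in eWAT lay around background, with 2.78, 2.84, 3.22 and 3.09 in wild-type and 2.46, 2.56, 2.69 and 2.71 in knockout mice. All knockout values were below all wild-type values, as was so in one direction or the other for 21.6% of all genes in eWAT. The log2 change was -0.38 (adjusted p = 0.0512, limma), and 6 of 15 alternative settings brought it past the threshold (adjusted p 0.0271 to 0.137, limma). As the knockout mean of 2.60 was under the background level, this change has no firm lower end. *Cyp8b1* in eWAT had means of 2.81 and 2.95, just above that level, with a change of 0.14 (adjusted p = 0.428, limma).

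**Figure D4:**
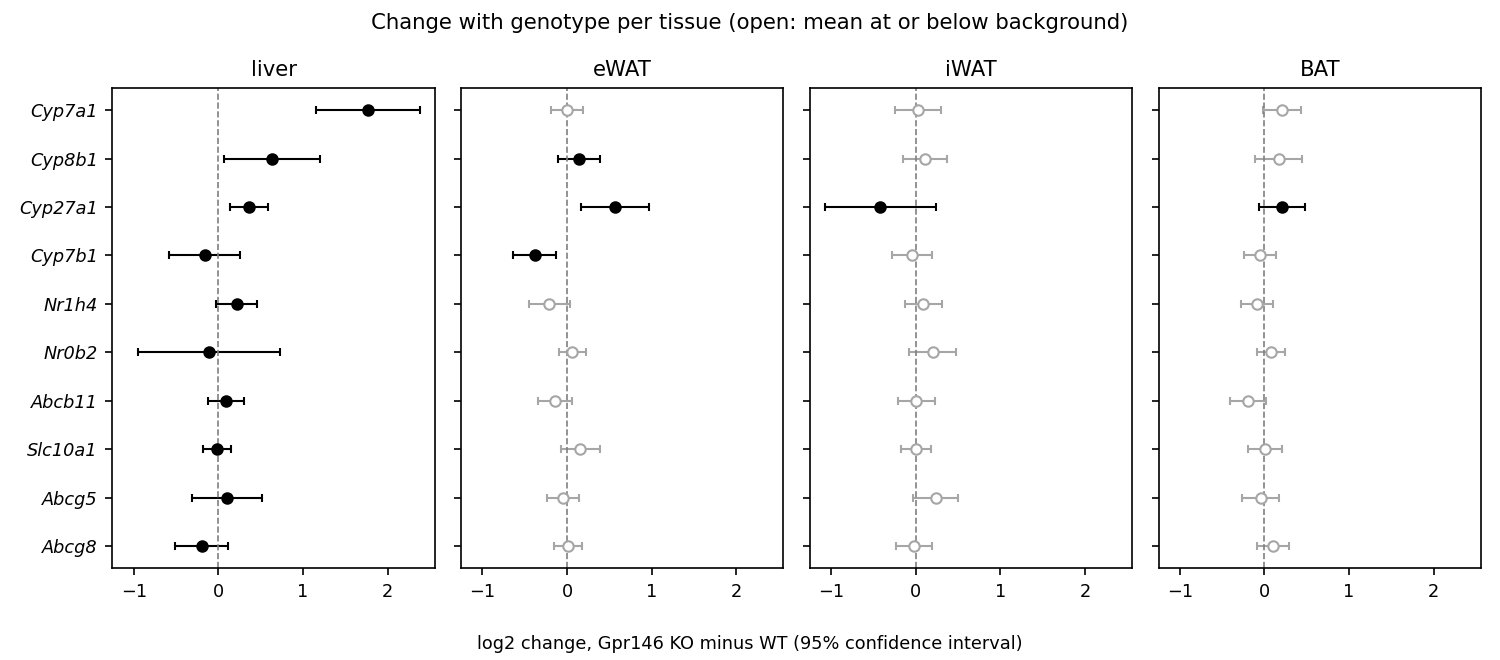
Log2 change (x axis, *Gpr146* KO minus WT) of the 10 members (y axis) in liver, eWAT, iWAT and BAT. Points are means over 4 mice per genotype, bars are 95% confidence intervals from limma, and open grey points mark genes whose mean over the 8 arrays was at or below background. *Cyp7a1* in liver at 1.77 stands farthest from 0, and *Cyp27a1* is filled in all 4 tissues.

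The genotype change of each member in liver was set against its change in each depot in a joint model. For *Cyp7a1* the liver change exceeded the eWAT change by 1.77 (SE 0.33, adjusted p = 0.0057, limma interaction), and 8.53% of all genes were called in this comparison against 1 of 10 members. Against iWAT the difference was 1.74 (adjusted p = 0.08, limma interaction) and against BAT 1.56 (adjusted p = 0.0698, limma interaction), neither past the threshold, where 0.118% and 0.146% of all genes were called. The joint model treated liver and depot samples of the same mouse number as separate arrays. Paired by mouse number instead, the eWAT comparison had an adjusted p of 0.00927 (limma). The exact permutation test, two-sided, also took liver minus depot of the same mouse number. Its p was 0.0286 in each of the 3 comparisons, and 0.171 after adjustment over all 30 comparisons of members and depots. Since *Cyp7a1* was below background in fat, these values compare a detected gene with one that was not detected. For *Cyp27a1*, the member detected everywhere, the liver and eWAT changes of 0.36 and 0.57 differed by -0.21 (adjusted p = 0.655, limma interaction).

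Several genes of the 5 further lists that were named in liver also passed the threshold in eWAT, where 15.2% of all genes did. *Soat1* measured 8.55, 8.70, 8.68 and 8.65 in wild-type eWAT and 5.32, 8.17, 6.89 and 5.42 in knockout eWAT. All knockout values lay below, with replicate 2 nearest to the wild type, and the mean fell by 2.20 on the log2 scale (SE 0.54, adjusted p = 0.0262, limma). *Nceh1* fell by 1.29 (adjusted p = 0.0222, limma) and *Abcb4* fell by 0.89 (adjusted p = 0.0308, limma). *Acot8* fell by 0.46 (adjusted p = 0.0103, limma) and *Scd1* rose by 0.45 (adjusted p = 0.025, limma). *Cyp2c70* fell from 3.20 to 2.24, a level below background (adjusted p = 0.0117, limma). By list, the counts called higher and lower in eWAT were 1 and 4 of 16 synthesis enzymes, 3 and 1 of 21 regulators and 0 and 2 of 16 transporters. They were 2 and 3 of 8 LXR targets and 0 and 6 of 13 genes of cholesterol delivery and esterification.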

How the data were processed

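RNA of 4 tissues from 4 knockout and 4 wild-type mice was measured by array (Affymetrix Mouse Gene 2.1 ST). The values the authors deposited are log2 expression, 1 for each gene symbol on each array, normalized within each tissue by a method not given in the sources used here. For 840 genes they average several probe sets. Entries with a blank or spreadsheet-damaged name were left out (1 or 2 per table). Genotypes came from the sample labels, and the match of the inguinal and visceral tables to iWAT and eWAT was inferred from their names. In each tissue a model of genotype without covariates was fitted with limma 3.58.1 under R 4.3.3, with Benjamini-Hochberg adjustment over 24646 genes. P-values measure the spread between these mice. Pairs of members were compared on deviations from genotype means over all 576 orders within genotype. The median log2 value of an array was 3.00 to 3.06 in liver.

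The members and gene lists were chosen with earlier results of these data known. Named are all members, list genes past the threshold in liver or the 3 with the smallest p, in fat those of them past the threshold there, markers where a list moved with a result, and the 5 genes nearest to *Cyp7a1*. *Malrd1* and *Stard1* were not used here. The alternatives were a trended and robust prior, array weights, dim genes left out, quantile normalization, equal array medians, a replicate block, the methods' t-test and each array left out. For liver, a fit without both livers of replicate 2 was added after seeing the data. The procedure was tested on simulated data. Figures were drawn with matplotlib.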

Additional observations from a re-analysis of the deposited data

Results flagged for a closer look

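Wild-type replicate 2 was far from the other 3 wild-type livers for *Cyp7a1*, with a gap to the nearest of 0.909 of the group's range. Knockout replicate 2 was far from the other knockout livers for *Cyp7a1*, with 0.937 of the range. Of 80 groups of 4 tested, 3 more stood out, all in genes at background: *Abcg5* in knockout eWAT (0.955), *Abcb11* in knockout iWAT (0.845) and *Abcg8* in wild-type iWAT (0.931). About 1 in 20 groups is singled out by chance. The change of *Cyp7a1* differed between liver and eWAT by 1.77 on the log2 scale (adjusted p = 0.0057, limma interaction). As *Cyp7a1* was below background in eWAT, this sets a detected gene against one that was not detected.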

How the results depend on the processing

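In liver, 1 member was called, and the count was 0 with a trended and robust prior, 0 with the methods' t-test after Benjamini-Hochberg adjustment, 2 with that t-test unadjusted and 0 to 2 with 1 array left out. *Cyp7a1* kept its direction under all 16 adjusted alternatives and passed under 11 (change 1.31 to 1.91), with an adjusted p of 0.232 for the methods' t-test. Of the further genes 1 was called in liver, against 2 with dim genes left out (*Abcc3* and *Acot8*), 2 with the replicate block (*Abcc3* and *Mylip*), 2 without both livers of replicate 2 (*Cyp2c70* and *Soat1*), 20 and 0 with the methods' t-test before (11.8% of all genes) and after adjustment, and 0 to 5 with 1 array left out. In eWAT, 0 members were called, against 1 with a trended and robust prior, array weights or equal array medians, 2 with dim genes left out, quantile normalization, the replicate block or the unadjusted methods' t-test (*Cyp27a1*, *Cyp7b1* or both), and 0 to 1 with 1 array left out. Of all eWAT genes, 14.7%, 21.5% and 14.7% were called in the first 3 of these settings. With dim genes left out, where 3 members remained, it was 28.2%. Quantile normalization had 15.2%, the replicate block 13.8% and the unadjusted t-test 27.6%. With 1 array left out the share ran from 5.88% to 22%. Members whose liver change differed from iWAT or from BAT numbered 0, and 0 to 1 with 1 array left out (1 without wild-type replicate 2). The change of *Nr0b2* in liver turned to 0.0176 with array weights and 0.0932 without both livers of replicate 2. With 1 array left out it ran from -0.46 to 0.18, that of *Slc10a1* from -0.0483 to 0.0243, of *Abcg5* from -0.0627 to 0.28 and of *Cyp7b1* from -0.29 to 0.0131, while that of *Cyp8b1* ran from 0.36 to 0.78 and of *Abcb11* from 0.04 to 0.14. The causes were not tested. Other counts in iWAT, BAT and among pairs did not move. Liver and depot were paired by mouse number only in the permutation test of their changes and in the replicate block of that comparison. Correlations of liver with depot for the same mouse number were low. They ran from -0.06 to 0.15 for eWAT, from -0.15 to 0.17 for iWAT and from -0.03 to 0.07 for BAT. Within a tissue, replicate numbers were not taken to pair knockout with wild-type samples. In no tissue were all 4 same-number correlations of deviations above 0.1. They ran from -0.06 to 0.11 in liver, up to 0.16 in eWAT, from -0.38 to 0.67 in iWAT and from 0.01 to 0.22 in BAT, with 3 of 4 above 0.1 in iWAT and in BAT, and the replicate block changed no other call.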
